A study of Mus musculus with 24 samples.

Results

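The muscle of untreated R6/2 mice was compared with that of wild type mice on 8 of the 24 RNA sequencing libraries of the series, 4 of each genotype, and these libraries were chosen by their labels. R6/2 mice carry a transgene for exon 1 of mutant human HTT, the gene behind Huntington's disease, and their wild type counterparts do not. All 8 mice had the CBA x C57BL/6 F1 background and were 12 weeks old, and quadriceps femoris was taken 4 h after a mock procedure. In each genotype 2 mice were controls of the heat shock experiment, held under isoflurane in a heating pad at 36.9 °C for 21 min, and 2 were vehicle mice of the HSP990 experiment, given saline by oral gavage. "Untreated" therefore means that no heat shock and no HSP90 inhibitor was given, not that the mice were left undisturbed. The other 16 libraries came from treated mice and from Hsf1-/- mice, and they entered the fit for the spread between mice and the filter on low counts, and served in the check of the genotype labels and, for 8 of them, in a comparison of treated mice at the end. The question was how far the transcriptome of R6/2 muscle stands from that of wild type muscle without heat shock or HSP90 inhibition.

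Fast skeletal muscle fibres are built from sarcomeres, in which myosin heavy and light chains pull on actin filaments under the control of the troponins, and they draw their energy for short bursts from glycogen and glycolysis. Calcium released from the sarcoplasmic reticulum starts each contraction and is pumped back by the SERCA1 pump. At the neuromuscular junction the nerve holds the acetylcholine receptors in a small patch of membrane, and a fibre that loses its nerve or its activity switches on receptor genes along its whole length. Wasting of skeletal muscle is a known feature of R6/2 mice.

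The genotype labels were checked first on Gm12695 (gene 620779, mm9 chr4:96390338-96451877), a mouse gene at the site where the R6/2 transgene is known to have inserted. All 8 R6/2 libraries of the series held 40 to 82 counts of it, whereas none of the 16 other libraries held more than 1. The 4 untreated R6/2 libraries summed to 248 counts against 0 in the 4 wild type libraries, at least 46.9-fold more when 3 counts over the wild type group are taken as the limit of a count of 0. The gene failed the filter on low counts, which asks for at least 2 counts in at least 10 libraries, and so belongs to no count of called genes. Mouse Htt (gene 15194), which does not measure the human transgene, had 26.98, 23.7, 28.4 and 33.9 CPM in wild type mice and 19.7, 28.0, 24.0 and 26.5 CPM in R6/2 mice. Here and below the first 2 values of each genotype are the control mice and the last 2 the vehicle mice, and CPM is a gene's count relative to the size of its library, scaled with TMM, the trimmed mean of M values. Htt ranges overlapped, and the log2 fold change was -0.20 ± 0.123 (SE, adjusted p = 0.24). Errors of fold changes are standard errors throughout, n = 4 mice per genotype, and adjusted p values are those of the quasi-likelihood test in edgeR, adjusted by Benjamini and Hochberg's method over 13754 genes.

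Library totals were 30062349 to 35168663 counts in R6/2 mice and 24062246 to 29939582 in wild type mice. The 20 highest genes of a library took 14.66 to 19.34% of its counts in R6/2 mice and 34.25 to 34.85% in wild type mice. Counts of the 4 Y-linked genes were at most 4 in the 4 control libraries and 4612 to 9392 in the 4 vehicle libraries, so that sex and experiment cannot be told apart, while each genotype held both. The tissue label was checked against its markers, and 10 genes of skeletal muscle fibres summed to 197700 to 229500 CPM in wild type and 46710 to 76260 CPM in R6/2 mice. In whole tissue, fewer cells of a type and less RNA of a gene per cell cannot be told apart. Gapdh, Pln and Atp5g1 were listed at 0 in all 24 libraries although muscle uses them, so a count of 0 in this table can be a failed assignment.

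The genotypes differed across much of the transcriptome. Of 13754 genes tested, 4194 (30.5%) were called at an adjusted p below 0.05, of which 2075 (15.1%) were higher and 2119 (15.4%) lower in R6/2 muscle. Counts of called members in the lists below are to be read against these shares. The median absolute log2 fold change was 0.614 among those called higher and 0.606 among those called lower, and 1002 genes changed at least 2-fold, 514 up and 488 down. CPM of the 4 R6/2 mice and the 4 wild type mice did not overlap for 3814 genes (27.7%), with R6/2 higher for 1936 (14.1%) and lower for 1878 (13.7%). Leaving out each mouse in turn gave 3004 (without R6/2 control 1) to 4094 (without R6/2 control 2) calls.

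The even split rests on the scaling. TMM factors were 1.3 to 1.395 in R6/2 and 0.8557 to 0.9242 in wild type libraries. Scaled by library size alone, 8876 genes were called, 95.3% of them higher, and the middle gene of the table went from a log2 fold change of 0.05 to 0.66. All 2075 genes called higher kept their sign under this scaling, but 1056 of the 2119 called lower changed sign, so a small fall is one relative to most other genes. Called members that changed sign under it are counted beside only some of the lists below. Others were 5 for tubulins and actin, 4 each for ATF4 and endoplasmic reticulum chaperones, 3 for autophagy and 2 for p53 targets. The lists for atrophy, myogenic factors, the clock, polyamines, collagens, BMP signalling and huntingtin partners held 1 each.

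**Figure D1:**
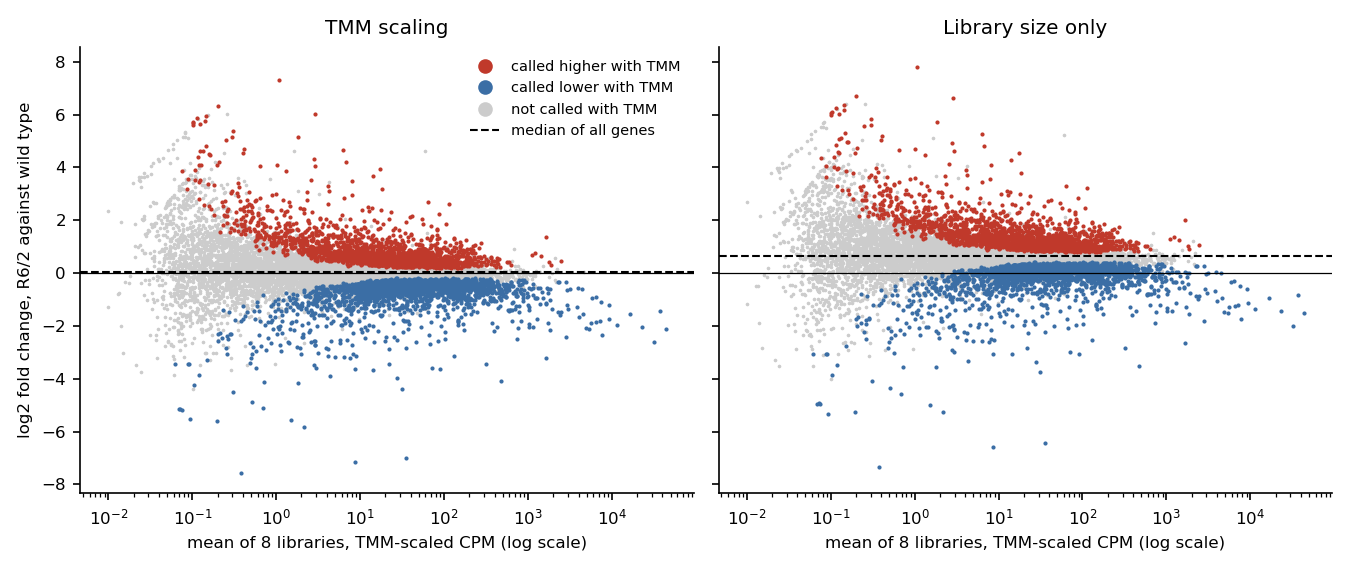
Log2 fold changes of the 13754 tested genes (R6/2 minus wild type, 4 mice each) against their mean level in TMM-scaled CPM (log scale), with TMM scaling (left) and with library size alone (right). Each point is a gene, coloured by its call under TMM scaling, and the dashed line is the median of all genes, which lies at 0.05 on the left and at 0.66 on the right.

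The contractile proteins of fast fibres fell together. Of 13 genes for fast-fibre sarcomere proteins, 0 rose and 13 fell, and all 13 were without overlap between the genotypes. Their median log2 fold change was -1.81, against 0.05 for all genes, and their summed level was 134000 to 142800 CPM in wild type and 29300 to 48400 CPM in R6/2 mice. The median was -1.58 within the control mice and -2.02 within the vehicle mice.

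Acta1 (gene 11459, mm9 chr8:126415669-126418651) encodes the actin of skeletal thin filaments. Wild type mice had 49500, 59500, 57580 and 52660 CPM and R6/2 mice 7770, 14170, 7334 and 7406 CPM. All R6/2 values lay far below the lowest wild type value, with R6/2 control 2 the highest of them, and Acta1 was 6.1-fold lower (log2 fold change -2.61 ± 0.224, adjusted p = 6.7e-07). Myh4 (gene 17884, mm9 chr11:67051314-67073948), the myosin heavy chain of the fastest fibres, had 60500, 62210, 80000 and 81900 CPM in wild type and 10220, 22350, 14390 and 18170 CPM in R6/2 mice. Again the ranges were apart, and Myh4 fell by 2.11 ± 0.244 on the log2 scale (adjusted p = 1.1e-05). Myl1, a fast myosin light chain, fell from 4126 to 5036 CPM to 639 to 1284 CPM (log2 fold change -2.40 ± 0.255), although a copy on chromosome 12 that is 98.86% identical over 65% of its transcript could share its reads. Tpm1 (-2.10 ± 0.277), Mybpc2 (-2.08 ± 0.171) and Tnnt3 (-1.75 ± 0.185), which encode a tropomyosin, a fast myosin-binding protein and fast troponin T, fell as well. Actn3 (-1.81 ± 0.135), the alpha-actinin of fast fibres, and Myoz1 (-1.46 ± 0.0913), its partner at the Z-disc, were also lower. Ttn (-1.54 ± 0.164), the giant spring of the sarcomere, lies outside this list. Myom2, an M-band protein, had the smallest fall (-0.35 ± 0.101, adjusted p = 0.014), and it was +0.25 when libraries were scaled by size alone. That call was lost without R6/2 vehicle 1, wild type control 2 or wild type vehicle 2 (adjusted p = 0.052, 0.074 and 0.053), which left 12 falls.

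Other fibre types were examined next. Among 9 myosin heavy chains, 5 fell and 1 rose. Myh1 and Myh2, of the next slower fast fibres, fell by 1.30 ± 0.221 and 1.15 ± 0.312 on the log2 scale, the second of which was not called without R6/2 control 1 (-0.98, adjusted p = 0.057). Myh14, a non-muscle myosin, rose (0.97 ± 0.127). For slow fibres 1 of 13 genes rose and 1 fell, and their median was -0.68. Myh7, the slow myosin, had 55.8, 57.9, 119 and 88.1 CPM in wild type and 33.0, 47.5, 8.97 and 65.1 CPM in R6/2 mice, with ranges that met and an adjusted p of 0.5. In the 12 embryonic and cardiac isoforms tested, 1 fell and 0 rose. That was Actc1, the cardiac actin, with 1817, 1438, 1265 and 465 CPM in wild type and 68.5, 522, 164 and 136 CPM in R6/2 mice (-2.50 ± 0.551, adjusted p = 0.0025), where the lowest wild type mouse lay inside the R6/2 range. Without R6/2 control 2, 4 of the 12 fell, and without R6/2 vehicle 2, 3 fell. Desmin (Des), the intermediate filament of every fibre type, had 4038 to 4741 CPM in wild type and 4272 to 5360 CPM in R6/2 mice and did not pass the test (0.06 ± 0.0875, adjusted p = 0.66).

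**Figure D2:**
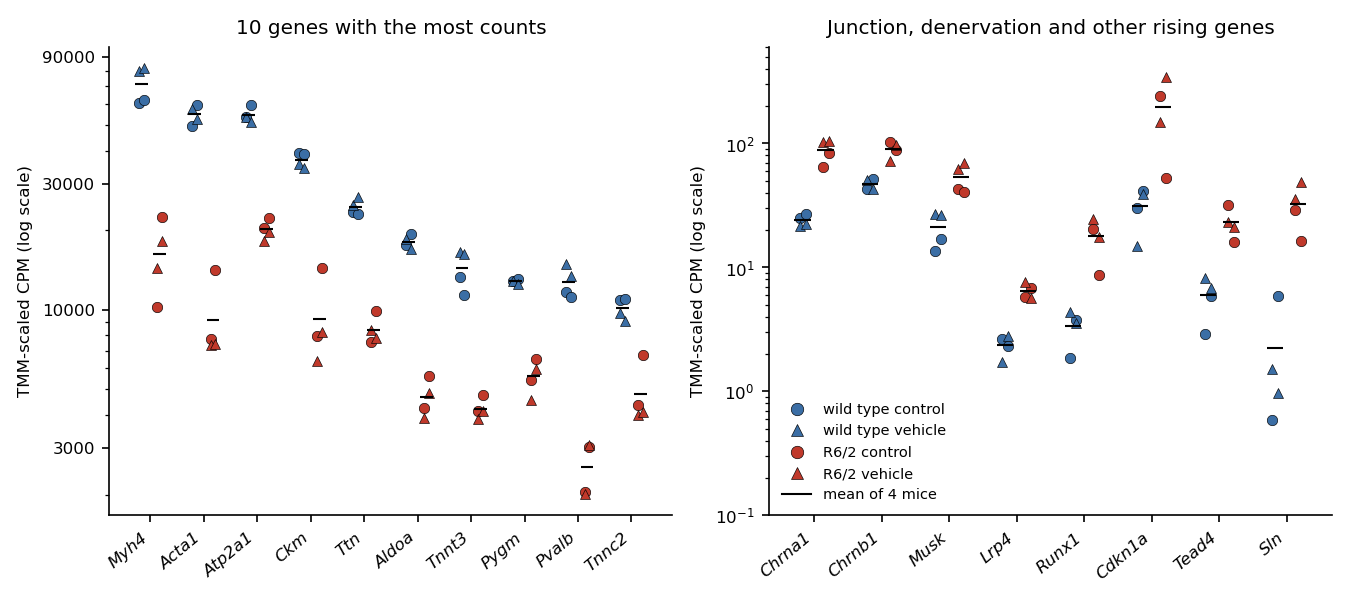
TMM-scaled CPM (log scale) in each of the 8 mice for the 10 genes with the most counts (left) and for genes of the junction and other rising genes (right). Circles are heat shock controls, triangles vehicle mice, blue wild type and red R6/2, and bars are means of 4 mice. Every R6/2 value lies below every wild type value for the 10 genes on the left and above for the 8 on the right.

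Calcium handling followed the sarcomere. Of 19 genes for excitation-contraction coupling and calcium handling, 13 fell and 2 rose, and the summed level went from 82790 to 88500 CPM in wild type to 29870 to 36510 CPM in R6/2 mice. Atp2a1 (gene 11937), which encodes SERCA1, had 53390, 59380, 53650 and 51280 CPM in wild type and 20460, 22290, 18160 and 19650 CPM in R6/2 mice. It was 2.71-fold lower (-1.44 ± 0.134, adjusted p = 1.4e-06). Pvalb, the parvalbumin that buffers calcium in fast fibres, was 5-fold lower, from 11130 to 14850 CPM down to 2007 to 3078 CPM (-2.32 ± 0.239). Casq1, the calsequestrin that stores calcium in fast fibres, had 1756, 1609, 1724 and 1472 CPM in wild type and 309, 560, 332 and 410 CPM in R6/2 mice (-2.03 ± 0.238). Jph2 (-1.47 ± 0.157), a junctophilin that ties the reticulum to the surface membrane, and Ryr1 (-0.95 ± 0.112), the release channel, fell as well. Both that rose are genes of slow or cardiac muscle. Casq2, the cardiac calsequestrin, went from 31.7 to 62.5 CPM to 83.1 to 156 CPM (1.44 ± 0.296, adjusted p = 0.0015). Sln (gene 66402), which encodes sarcolipin, a small inhibitor of the SERCA pump, had 0.585, 5.86, 1.53 and 0.969 CPM in wild type and 29.0, 16.4, 35.4 and 49.0 CPM in R6/2 mice. Every R6/2 mouse lay above the highest wild type mouse, control 2, and Sln rose by 3.94 ± 0.836 (adjusted p = 0.0019). Under library size scaling 3 of the called falls of this list turned positive.

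The membrane channels that carry and end the action potential were lower in most cases: 17 of 27 fell and 3 rose, with a median of -0.46. The median turned to +0.15 and 8 of the called members changed sign under library size scaling. Among those that fell under both scalings were Kcnq5 (-2.13 ± 0.277), a potassium channel subunit, Scn4b (-1.25 ± 0.125), an auxiliary sodium channel subunit, and Cacna1s (-0.93 ± 0.0893), the voltage sensor of contraction. Clcn1, the chloride channel that sets the resting conductance of fibres, had 303, 269, 299 and 281 CPM in wild type and 204, 251, 195 and 188 CPM in R6/2 mice (-0.47 ± 0.0911, adjusted p = 0.001), and +0.14 with library size alone.

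Glycolysis genes fell as well. Of 29 genes for glycolysis and glycogen 24 fell and 0 rose, 23 of them without overlap, with a median of -1.19 and a summed level of 61990 to 64810 CPM in wild type against 20290 to 28200 CPM in R6/2 mice. Aldoa (gene 11674), the muscle aldolase, had 17590, 19270, 18490 and 16990 CPM in wild type and 4261, 5639, 3889 and 4846 CPM in R6/2 mice, a 3.89-fold fall (-1.96 ± 0.132, adjusted p = 1.3e-07). Pgam2, the muscle phosphoglycerate mutase, went from 691, 735, 713 and 623 CPM to 166, 230, 129 and 149 CPM (-2.06 ± 0.139, adjusted p = 1.3e-07). Both ranges were far apart in the controls and in the vehicle mice alike. Gpd1 (-1.93 ± 0.218), Ldha (-1.90 ± 0.171), Pfkm (-1.46 ± 0.112) and Pygm (-1.19 ± 0.112), for a glycerol phosphate dehydrogenase, lactate dehydrogenase A, the muscle phosphofructokinase and glycogen phosphorylase, were among the others, as was Slc2a4 (-1.24 ± 0.0973), the insulin-responsive glucose transporter. Pkm and Gpi1 were the 2 called members with a positive value under library size scaling, at 0.01 and 0.07. Ckm (gene 12715), the muscle creatine kinase, is not in this list and had 39090, 38780, 35740 and 34250 CPM in wild type and 7967, 14430, 6425 and 8225 CPM in R6/2 mice (-2.03 ± 0.181, adjusted p = 9.4e-07).

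Most genes of the respiratory chain were lower. Of 74 subunits of the respiratory chain 68 fell and 0 rose, with a median of -0.56, and their summed level was 31330 to 34080 CPM in wild type and 18170 to 25330 CPM in R6/2 mice. Under library size scaling the median was +0.04 and 40 of the 68 changed sign, so the fall is one relative to most other genes. Sdha, the flavoprotein of complex II, kept its sign: it had 1660, 1635, 1513 and 1566 CPM in wild type and 972, 903, 687 and 778 CPM in R6/2 mice (-0.94 ± 0.0969, adjusted p = 3.7e-06). Ndufs7, of complex I, fell by 1.01 ± 0.132. In the list for fatty acid oxidation and the citric acid cycle 13 of 33 fell and 2 rose, with a median of -0.20, which was +0.41 with library size alone, where 3 of the called members changed sign. Mb, which encodes myoglobin, the oxygen store of fibres, had 2161, 3285, 3692 and 2951 CPM in wild type and 455, 1052, 467 and 740 CPM in R6/2 mice (-2.16 ± 0.3).

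**Figure D3:**
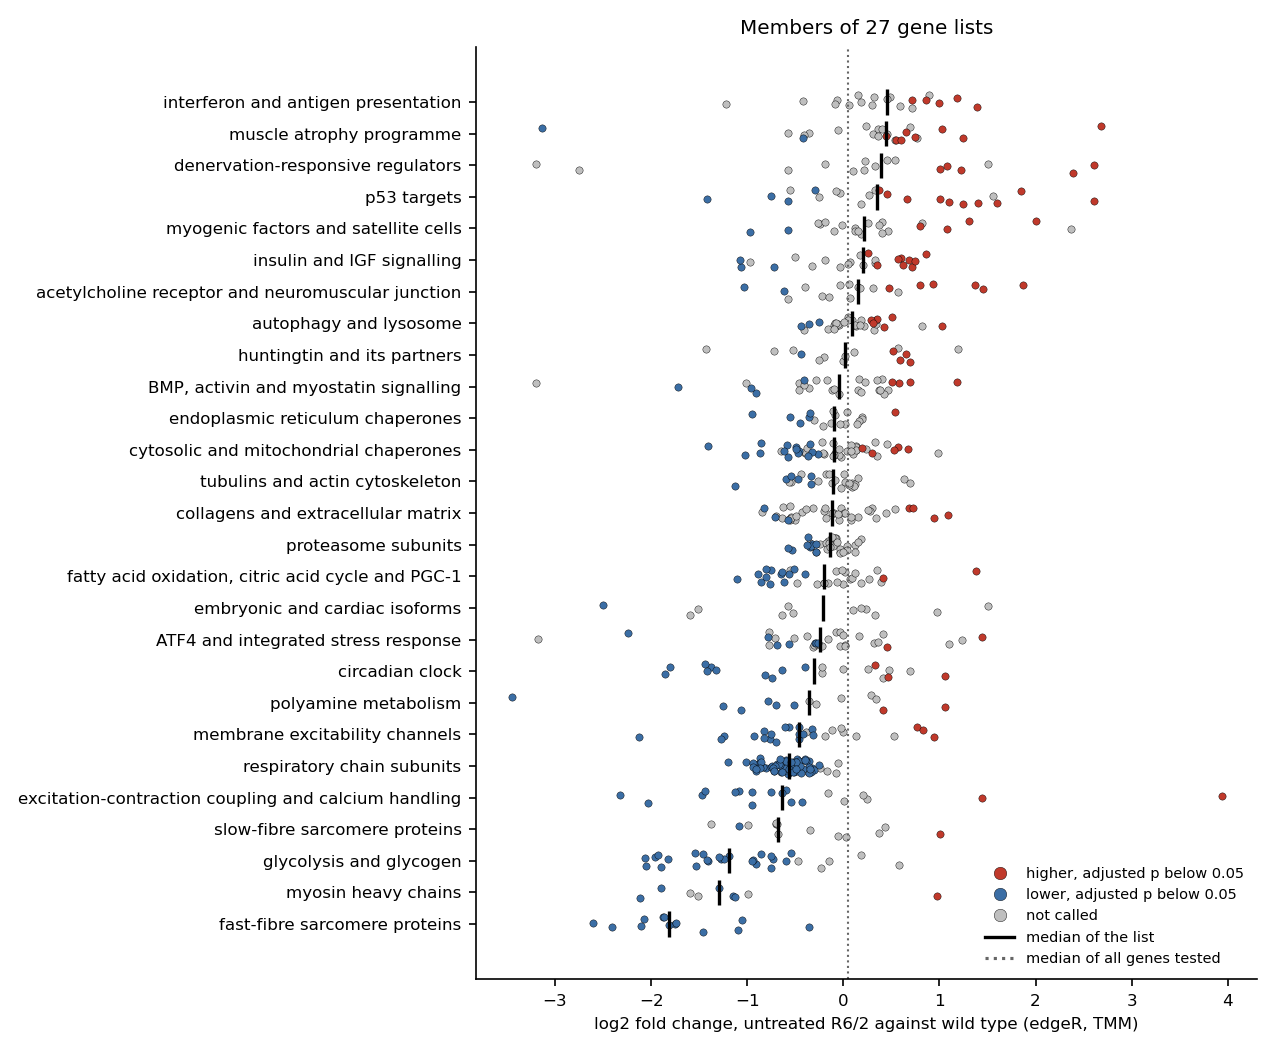
Log2 fold changes between untreated R6/2 and wild type mice (edgeR, TMM scaling) for each tested member of 27 gene lists, with 1 point per gene. Red points were called higher, blue points called lower and grey points not called, the black bar is the median of a list and the dotted line the median of all genes at 0.05. Fast-fibre sarcomere proteins lie lowest with a median of -1.81.

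Some genes of the acetylcholine receptor and its clustering machinery rose. Of 19 junction genes 6 rose, 2 fell and 11 were not called, all 8 called genes were without overlap, and the median of the list was 0.15. Chrna1 (gene 11435, mm9 chr2:73401272-73418395), the subunit that binds acetylcholine, had 25.1, 27.2, 21.8 and 22.5 CPM in wild type and 64.6, 83.2, 104 and 105 CPM in R6/2 mice. Each R6/2 mouse lay more than 2-fold above the highest wild type mouse, and Chrna1 was 3.65-fold higher (1.87 ± 0.147, adjusted p = 3.8e-07). Chrnb1, the beta subunit, had 42.8, 51.6, 50.8 and 43.0 CPM in wild type and 102, 87.9, 72.4 and 97.9 CPM in R6/2 mice (0.94 ± 0.148, adjusted p = 0.00018). Musk (gene 18198), the receptor tyrosine kinase that gathers the receptors, had 13.7, 16.9, 27.1 and 26.6 CPM in wild type and 42.9, 40.3, 62.6 and 69.2 CPM in R6/2 mice (1.37 ± 0.206, adjusted p = 0.00012). Vehicle mice were higher than control mice in both genotypes, and R6/2 mice were higher within each experiment. Lrp4, the co-receptor of MuSK for the nerve signal agrin, had 2.65, 2.31, 1.74 and 2.79 CPM in wild type and 5.81, 6.81, 7.64 and 5.66 CPM in R6/2 mice (1.45 ± 0.216, adjusted p = 0.00011). Rapsn (0.47 ± 0.106), the scaffold under the receptors, and Erbb2 (0.80 ± 0.18), a neuregulin receptor, also rose.

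Not every receptor subunit moved. Chrnd, the delta subunit, had 5.35 to 7.20 CPM in wild type and 4.70 to 8.43 CPM in R6/2 mice (0.06 ± 0.22, adjusted p = 0.87). Chrne, the adult epsilon subunit, had 17.8 to 23.3 CPM against 12.7 to 19.8 CPM (-0.40 ± 0.162, adjusted p = 0.074), and Chrng, the fetal gamma subunit, stayed at or below 0.684 CPM in all 8 mice. Ache, the acetylcholinesterase of the synapse, fell (-0.61 ± 0.135, adjusted p = 0.0025), though not with library size alone (-0.009), as did Ufsp1 (-1.03 ± 0.143).

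Of 16 regulators that respond to denervation 5 rose and 0 fell, with a median of 0.39, and 3 rose without R6/2 control 1, wild type control 1 or wild type vehicle 2. Over all genes tested, 15.1% were called higher and 15.4% lower. The largest change of the list was a fall that was not called (-3.2), and 1 member was lower without overlap. Runx1 (gene 12394), a transcription factor of denervated fibres, had 1.84, 3.77, 4.35 and 3.57 CPM in wild type and 20.3, 8.69, 24.6 and 17.7 CPM in R6/2 mice, a 5.23-fold rise (2.39 ± 0.302, adjusted p = 2.4e-05). Gadd45a, a growth arrest gene of denervated muscle, went from 43.5 to 49.6 CPM to 82.1 to 114 CPM (1.01 ± 0.148). Cdkn1a (gene 12575), the cell cycle inhibitor p21, had 30.3, 41.5, 14.9 and 39.2 CPM in wild type and 242, 52.3, 148 and 342 CPM in R6/2 mice. The groups did not overlap, but R6/2 control 2 came close to the wild type mice, and Cdkn1a rose by 2.61 ± 0.408 (adjusted p = 0.00016). Myog, for myogenin, rose by 1.07 ± 0.37 (adjusted p = 0.036), and that call was lost when any mouse other than R6/2 vehicle 2 was left out, with a value of 0.49 without R6/2 vehicle 1. Tead4 (2.01 ± 0.309), a myogenic transcription factor, had 2.92, 5.86, 8.24 and 6.79 CPM in wild type and 32.1, 15.9, 23.5 and 21.4 CPM in R6/2 mice.

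Sequence of the promoters is shown for 2 junction genes that rose and 4 sarcomere and energy genes that fell, since both groups are known targets of the myogenic factors. Each window runs from 250 bases before to 50 bases after the start of the gene, 5′ to 3′ on its own strand, from RefSeq on GRCm38.p6, and the capitals mark the E-box CAGCTG, the core bound by MyoD and myogenin, which reads the same on both strands. The windows are Chrna1 chr2:73580289-73580588 (minus), Musk chr4:58285712-58286011 (plus), Acta1 chr8:123894726-123895025 (minus), Ckm chr7:19410844-19411143 (plus), Myl1 chr1:66945007-66945306 (minus) and Myh4 chr11:67237562-67237861 (plus).
Chrna1: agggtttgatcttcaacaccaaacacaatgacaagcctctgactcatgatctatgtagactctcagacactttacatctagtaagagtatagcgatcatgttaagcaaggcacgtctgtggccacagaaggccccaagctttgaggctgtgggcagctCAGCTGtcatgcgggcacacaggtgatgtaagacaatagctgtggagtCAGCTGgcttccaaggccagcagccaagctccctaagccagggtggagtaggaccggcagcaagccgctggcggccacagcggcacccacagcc
Musk: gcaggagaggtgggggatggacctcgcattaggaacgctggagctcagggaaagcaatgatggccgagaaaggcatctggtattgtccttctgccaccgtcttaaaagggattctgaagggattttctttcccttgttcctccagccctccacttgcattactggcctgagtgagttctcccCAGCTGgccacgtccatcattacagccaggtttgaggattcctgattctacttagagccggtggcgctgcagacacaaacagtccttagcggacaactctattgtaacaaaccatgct
Acta1: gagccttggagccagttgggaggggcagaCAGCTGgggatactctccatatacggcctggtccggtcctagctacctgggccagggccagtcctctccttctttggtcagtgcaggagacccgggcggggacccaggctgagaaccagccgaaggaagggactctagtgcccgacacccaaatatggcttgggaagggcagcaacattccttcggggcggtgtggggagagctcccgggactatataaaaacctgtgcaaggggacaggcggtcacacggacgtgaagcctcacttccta
Ckm: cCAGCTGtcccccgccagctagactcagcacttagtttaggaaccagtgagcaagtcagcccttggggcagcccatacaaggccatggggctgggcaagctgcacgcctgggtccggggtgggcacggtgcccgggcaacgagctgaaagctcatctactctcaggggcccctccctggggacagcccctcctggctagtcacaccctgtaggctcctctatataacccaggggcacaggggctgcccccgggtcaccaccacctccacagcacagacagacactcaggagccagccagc
Myl1: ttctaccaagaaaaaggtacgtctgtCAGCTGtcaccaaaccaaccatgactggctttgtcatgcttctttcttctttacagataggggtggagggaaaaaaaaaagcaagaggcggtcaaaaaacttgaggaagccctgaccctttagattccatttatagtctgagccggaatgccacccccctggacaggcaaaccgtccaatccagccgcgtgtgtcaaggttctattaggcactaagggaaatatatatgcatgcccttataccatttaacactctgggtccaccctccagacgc
Myh4: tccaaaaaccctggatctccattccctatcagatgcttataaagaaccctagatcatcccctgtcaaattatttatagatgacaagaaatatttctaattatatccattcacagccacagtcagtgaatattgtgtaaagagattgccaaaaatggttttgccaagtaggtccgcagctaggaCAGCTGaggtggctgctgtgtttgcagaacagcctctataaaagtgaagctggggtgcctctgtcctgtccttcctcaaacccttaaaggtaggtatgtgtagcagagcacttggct
Chrna1 had E-boxes 92 and 44 bases before the start, Musk at 68, Acta1 at 221, Ckm at 249, Myl1 at 224 and Myh4 at 67. All 6 windows shown hold the motif, and windows that lack it are not shown, so these 6 do not tell how common it is. Over all genes it was in 16.3% of 32851 windows, in 17.1% of windows of genes called higher and in 15.8% of those called lower. Junction genes had it in 7 of 21 windows (33.3%), fast-fibre sarcomere genes in 3 of 6 windows and genes of glycolysis and glycogen in 14 of 38 (36.8%). These windows cover 13 of the 19 junction genes, 6 of the 13 fast-fibre genes and 26 of the 29 genes of glycolysis and glycogen. A match is a description of the letters and not a sign that a factor binds there.

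The atrophy genes did not move as a block. Of 23 genes of the muscle atrophy programme 8 rose and 2 fell, and the 2 ubiquitin ligases that define it did not pass the test. Trim63 (MuRF1) had 236, 303, 508 and 381 CPM in wild type and 557, 302, 366 and 817 CPM in R6/2 mice (0.54 ± 0.24, adjusted p = 0.099), with ranges that overlapped. It was called at 1.15 with library size alone, at 0.73 without R6/2 control 2 and at 0.78 without R6/2 vehicle 1. Fbxo32 (atrogin-1) had 268, 283, 758 and 304 CPM in wild type and 243, 200, 255 and 336 CPM in R6/2 mice (-0.58 ± 0.223, adjusted p = 0.06), and it was called lower by DESeq2 (-0.586 on the 24 libraries and -0.595 on the 8). Among those that rose were Ctsl (1.03 ± 0.113), for the lysosomal protease cathepsin L, and Foxo3 (0.74 ± 0.16) and Foxo4 (0.66 ± 0.11), the transcription factors upstream of the ligases. Ddit4, an inhibitor of mTOR, had 8.14, 10.9, 16.4 and 31.0 CPM in wild type and 98.1, 14.7, 50.2 and 281 CPM in R6/2 mice. R6/2 control 2 fell inside the wild type range, and the log2 fold change of 2.69 ± 0.6 (adjusted p = 0.0028) was 1.71 without R6/2 control 1. Nmrk2, a kinase in the pathway from nicotinamide riboside to NAD, fell the most of this list, from 112, 132, 511 and 192 CPM to 32.2, 31.0, 22.4 and 12.6 CPM (-3.13 ± 0.401).

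Targets of p53 rose more often than they fell, 10 against 4 of 22, with a median of 0.35. Besides Cdkn1a and Gadd45a, which the denervation list also holds, Eda2r (1.85 ± 0.374), a receptor of the TNF family, and Sesn1 (1.24 ± 0.272), a sestrin that restrains mTOR, rose. Eda2r had 1.26, 1.46, 2.98 and 0.698 CPM in wild type and 6.15, 4.86, 6.30 and 5.54 CPM in R6/2 mice, with a clear gap. Ccng1, for cyclin G1, fell (-0.58 ± 0.113) and was +0.03 with library size alone. Of the 4 falls 2 were left without R6/2 control 2, R6/2 vehicle 2, wild type control 1 or wild type vehicle 1. Of 22 genes for myogenic factors and satellite cells 4 rose and 2 fell, and 2 rose without wild type control 2. Neither 4 nor 2 of 22 stands far from the 15.1% of all genes called higher and the 15.4% called lower. Pax7, the marker of satellite cells, had 4.95, 3.66, 3.93 and 3.22 CPM in wild type and 7.89, 6.71, 6.75 and 6.01 CPM in R6/2 mice (0.80 ± 0.213, adjusted p = 0.0092).

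Several of the largest rises were in genes with few counts in wild type muscle. Bbox1 (gene 170442), the last enzyme of carnitine synthesis, had 10 counts in the 4 wild type libraries and 1002 in the 4 R6/2 libraries, a ratio per effective library size of 56.8 (95% counting interval 30.8 to 119). Chrna9, an acetylcholine receptor subunit of the inner ear, had 24 against 961 counts (22.7, 15.2 to 35.6). Intervals cover counting error only. Ddc (4.65 ± 0.502), the decarboxylase that makes dopamine and serotonin, had 0.45, 0.746, 0.331 and 0.388 CPM in wild type and 12.1, 7.04, 11.4 and 17.8 CPM in R6/2 mice. Peg10 (3.67 ± 0.289), an imprinted gene derived from a retrotransposon, had 1.98, 2.09, 1.61 and 2.44 CPM in wild type and 29.1, 16.5, 35.7 and 23.0 CPM in R6/2 mice. In both genes the wild type mice lay close together, and every R6/2 mouse was several-fold higher. Erc2 (5.14 ± 0.695), for a protein of the presynaptic active zone, Irx5 (3.52 ± 0.357), a homeobox factor, and Serpinb1a (3.18 ± 0.299), a protease inhibitor, were others of the 15 largest.

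Among the largest falls, Fgfbp1 (gene 14181, mm9 chr5:44370104-44373001), a secreted carrier of fibroblast growth factors that acts at the neuromuscular junction, had 18.1, 15.3, 14.9 and 19.8 CPM in wild type and 0.132, 0.633, 0 and 0.0739 CPM in R6/2 mice. It was all but lost, with 34 counts in the 4 R6/2 libraries against 1682 in the 4 wild type libraries (-7.16 ± 0.92, adjusted p = 2.8e-05). Kcng4 (-3.58 ± 0.265), a potassium channel subunit, had 103, 124, 171 and 128 CPM in wild type and 5.59, 13.2, 10.7 and 14.7 CPM in R6/2 mice. Dkk3 (-4.37 ± 0.442), a secreted protein of the Dickkopf family, had 37.5, 44.0, 96.8 and 60.5 CPM in wild type and 2.67, 2.28, 3.85 and 2.12 CPM in R6/2 mice. The ranges of the genotypes were apart for all 3 genes. Cacna2d4 (-3.91 ± 0.609), a calcium channel subunit, and Car3 (-3.23 ± 0.382), the carbonic anhydrase of muscle and fat, belong to the same group.

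Transcripts of fat varied among the wild type mice. The 10 adipocyte markers summed to 2033 to 5864 CPM in wild type and 765.3 to 864.4 CPM in R6/2 mice, and the 4 brown adipocyte markers to 60.43 to 338.0 and 25.58 to 30.79 CPM. Ucp1, the uncoupling protein of brown fat, had 200, 42.4, 0.207 and 37.6 CPM in wild type and 0.0661, 0.127, 0.204 and 2.71 CPM in R6/2 mice. It was highest in wild type control 1 and in wild type vehicle 1 within the R6/2 range. The brown marker that was not called ran the other way among wild type mice, lowest in control 1 and highest in vehicle 1. It had 24.4, 28.9, 58.7 and 43.0 CPM in wild type and 26.4, 23.1, 26.1 and 24.6 CPM in R6/2 mice. Of the 10 adipocyte markers 5 fell, but 2 without R6/2 control 1, R6/2 vehicle 2 or wild type control 1, 3 without R6/2 control 2 and 1 without wild type vehicle 2, and none of the 3 brown markers that fell did so without any of these 5 mice or without R6/2 vehicle 1. Elovl6 (-3.97 ± 0.851), a fatty acid elongase with 138, 39.1, 3.73 and 30.7 CPM in wild type and 1.74 to 3.44 CPM in R6/2 mice, and H2-Q10 (-3.64 ± 0.688), a class I gene with 36.3, 12.7, 1.78 and 13.5 CPM against 0.51 to 1.77 CPM, were among the 15 largest falls and, like Ucp1, were highest in wild type control 1 and lowest of the wild type mice in vehicle 1. The part of adipose tissue in these falls was not tested. Among the same wild type mice the fast-fibre sarcomere genes summed to 134000 to 142800 CPM and the myosin heavy chains to 66400 to 91420 CPM. Whether adipose tissue bears on these lists was not tested.

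**Figure D4:**
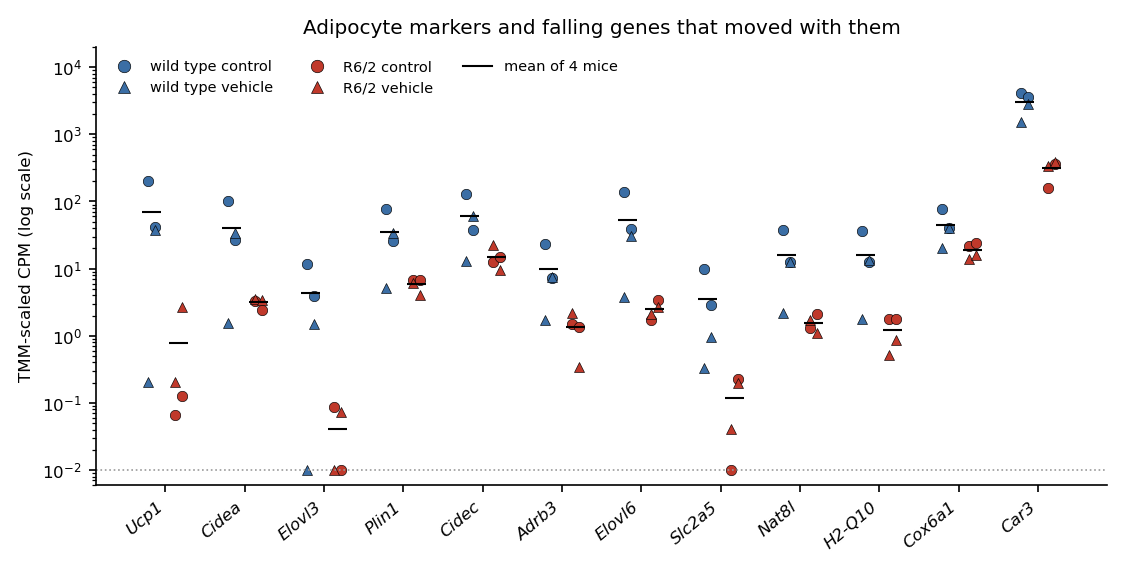
TMM-scaled CPM (log scale) in each of the 8 mice for part of the adipocyte and brown adipocyte markers and for other falling genes whose highest wild type mouse was control 1 and lowest vehicle 1. Circles are controls, triangles vehicle mice, blue wild type, red R6/2 and bars means of 4 mice, and points on the dotted line are counts of 0. Wild type control 1 is highest for each gene shown, at 200 for Ucp1, but a brown marker left out of the figure was lowest in that wild type mouse, at 24.4.

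Markers of other cell types were mostly not called. No marker of endothelial cells was called out of 9, 1 of 8 fibroblast markers, 2 of 6 satellite cell markers and 1 of 9 Schwann cell markers rose, 1 of 7 markers of smooth muscle and pericytes fell, 1 of 8 tendon markers rose, and none of the 3 erythroid markers was called. All 6 satellite cell markers had higher values in R6/2 mice (median 0.46), and their summed level did not overlap, at 53.43 to 61.02 CPM in wild type and 63.97 to 83.75 CPM in R6/2 mice. Medians were -0.54 for tendon markers and -0.77 for the erythroid markers, of which 2 were without overlap and lower. Of 13 leukocyte markers 2 rose, near the 15.1% of all genes called higher. The leukocyte markers had a median of 0.53 and a summed level of 68.37 to 113.0 CPM in wild type and 98.93 to 125.5 CPM in R6/2 mice. Their part in the rises reported above was not tested.

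Against 15.4% of all genes called lower and 15.1% called higher, 15 of 48 cytosolic and mitochondrial chaperones and co-chaperones fell and 5 rose in untreated mice. Their median was -0.10 but +0.51 with library size alone, where the median of all genes was 0.66, and 10 of the called members changed sign with library size alone. Hspb6, a small heat shock protein of muscle, had 1260, 1552, 1688 and 1430 CPM in wild type and 745, 596, 492 and 444 CPM in R6/2 mice, a fall that library size scaling kept (-1.40 ± 0.135, adjusted p = 1.9e-06). The mitochondrial HSP70 gene Hspa9 (-0.85 ± 0.0981), its partner Dnaja3 (-0.87 ± 0.067) and Dnajb5 (-1.02 ± 0.124) also fell under both. Hsp90ab1, the constitutive HSP90, went from 1437 to 1947 CPM to 1817 to 2234 CPM (0.30 ± 0.097, adjusted p = 0.027), and this call was lost on leaving out 5 of the 8 mice. Of the 5 rises 1 was left without R6/2 control 1, R6/2 vehicle 1, wild type control 1 or wild type vehicle 2, and 3 without R6/2 vehicle 2. Hspb1 had 24.0, 34.8, 55.6 and 34.6 CPM in wild type and 60.3, 27.3, 58.5 and 39.6 CPM in R6/2 mice (0.35 ± 0.277, adjusted p = 0.37). A copy on chromosome 13 that is 99.38% identical over 99.7% of the Hspb1 transcript could share its reads. Dnajb1 had 8.17 to 11.8 CPM against 9.33 to 11.6 CPM (0.07 ± 0.215, adjusted p = 0.84). Hsf1 itself, the master regulator of these genes, had 60.8, 63.9, 64.4 and 65.3 CPM in wild type and 50.2, 47.3, 51.4 and 48.2 CPM in R6/2 mice. These narrow ranges did not overlap (-0.37 ± 0.0889, adjusted p = 0.0048), but the sign turned to +0.24 with library size alone.

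The genotype difference was also set side by side in the 2 experiments. The controls alone gave 1711 called genes (12.4%), 757 higher (5.5%) and 954 lower (6.94%), and the vehicle mice alone 2638 (19.2%), 1200 higher (8.72%) and 1438 lower (10.5%), with 2 mice per group. Leaving out R6/2 control 1 left 258 calls in the controls, wild type control 1 645 and wild type control 2 649. In the vehicle mice 1365 to 1744 calls were left, in the order wild type vehicle 1, wild type vehicle 2, R6/2 vehicle 1 and R6/2 vehicle 2 (1365, 1401, 1543 and 1744). The difference between the experiments, tested itself as an interaction by edgeR, gave 0 calls, with 727 genes at an unadjusted p below 0.05, and DESeq2 gave 20 on the 24 libraries and 51 on the 8. The values of 2 genes with a low unadjusted p are given. Smox (gene 228608), the spermine oxidase, had 207, 210, 1083 and 875 CPM in wild type and 43.0, 60.0, 31.9 and 34.4 CPM in R6/2 mice, so that wild type vehicle mice were several-fold above wild type controls and R6/2 mice were not. Its fold change was -2.02 in the controls and -4.88 in the vehicle mice (unadjusted p of the difference 7.6e-05, adjusted p = 0.51). Pdk4 (gene 27273), the kinase that shuts off pyruvate oxidation in fasting, had 278, 378, 2155 and 1930 CPM in wild type and 3133, 1033, 1657 and 2715 CPM in R6/2 mice. R6/2 lay above wild type among the controls (2.67, adjusted p = 0.0013), the vehicle ranges overlapped (0.10, adjusted p = 0.9), and the difference between the experiments had an adjusted p of 0.51. Averaged, Pdk4 rose by 1.38 ± 0.299 (adjusted p = 0.0022), but by 0.88 without R6/2 control 1, and it was not called when only the 8 libraries were fitted (adjusted p = 0.11).

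Most of the difference was found again in mice that had been treated. In 4 R6/2 and 4 wild type mice after HS or HSP990, which share no library with those above, 3238 genes were called (23.5%). Of these 2463 were also called in the same direction in untreated mice, which is 58.7% of the untreated and 76.1% of the treated calls, and 13 genes were called in opposite directions. Of genes called higher in untreated mice 93.9% had the same sign in treated mice, and of those called lower 98.2%. Fast-fibre sarcomere genes fell again, 13 of 13 with a median of -1.63, as did 22 of 29 genes of glycolysis and glycogen and 59 of 74 of the respiratory chain. Of the 19 junction genes 6 rose and 5 fell in treated mice, with a median of -0.25. For the 16 denervation genes, 2 rose and 0 fell, with a median of -0.17. Over all genes 11.9% were called higher and 11.7% lower in treated mice, so the rises of the denervation genes are near that share. Chrna1 rose by 1.39, Musk by 0.81 and Runx1 by 1.45 in the treated mice. Ddit4, Sesn1 and Cdkn1a, whose log2 fold changes there were -0.23, -0.21 and 0.99, were not called. For the chaperones 33 of 48 fell and 0 rose in treated mice, against 15 and 5 in untreated mice, and the difference between these counts was not tested.

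**Figure D5:**
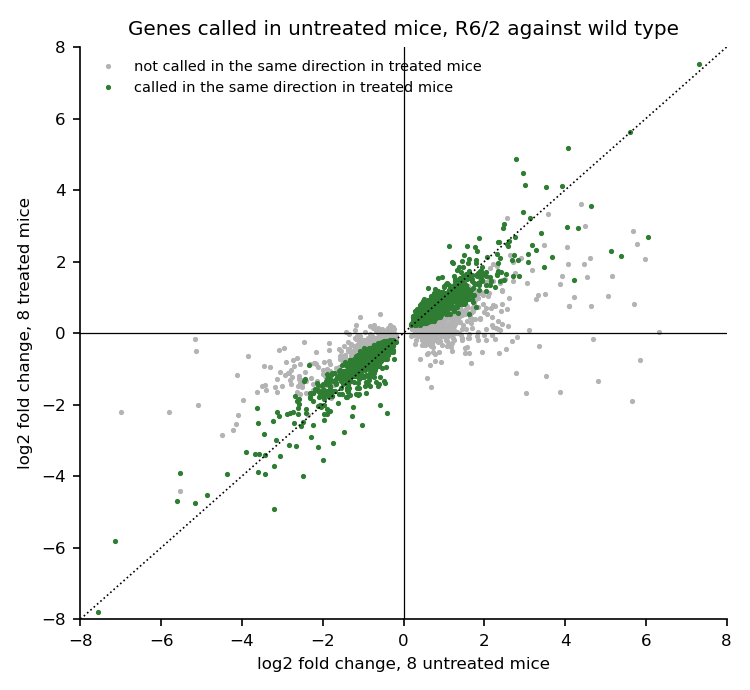
Log2 fold changes of the 4194 genes called in untreated mice, R6/2 against wild type, in the 8 untreated mice (x axis) and in 8 treated mice (y axis), both after TMM scaling. Each point is a gene, green where it was called in the same direction in the treated mice (2463 genes) and grey where it was not, the dotted line marks equal change, and most points lie where both values have the same sign.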

How the data were processed

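Poly(A) RNA of quadriceps femoris was sequenced as strand-specific paired-end libraries. The authors deposited raw counts per gene, made from Bowtie alignments to mm9 per the labels; the counting program, annotation and use of strand are not given in the sources used here, so overlapping genes and copies (minimap2 2.31-r1302) may share reads. Counts of 24 libraries in 12 groups (12 residual degrees of freedom) were fitted with edgeR 4.0.16 in R 4.3.3 (TMM factors, at least 2 counts in at least 10 libraries, quasi-likelihood test, Benjamini-Hochberg 0.05). The contrast was the mean of the R6/2 minus wild type differences within controls and within vehicle mice. DESeq2 1.42.0, other scalings, filters and fits, a replicate block and leaving out each mouse were alternatives, 27 settings in all. Whether mice of a group were littermates is not given, so p-values measure the spread between the mice of all 24 libraries, not of the compared mice alone. That spread was unequal between groups. Chi-square per degree of freedom between replicates was 110.8 in R6/2 controls and 54.55 in R6/2 vehicle mice. In wild type it was 24.45 in controls and 30.33 in vehicle mice. Calls may therefore be too firm where a group varied more. Fitting only the libraries compared gave 3938 calls against 4194 in untreated mice, and 492 against 1711 in the controls.

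The comparison, defined by the labels of its libraries, and the genes of 27 function lists and 12 marker lists were chosen with earlier results of these data known. Genes named were Htt, Gm12695 and Hsf1, the 15 largest rises and falls without overlap at a mean of at least 1 CPM, the 10 with most counts, and of each list up to 4 called members with the largest change and the 2 with the highest level. Ache, Actn3, Casq2, Chrnd, Chrne, Chrng, Clcn1, Dnajb1, Erbb2, Foxo3, Foxo4, Gadd45a, Gpi1, Hspb1, Ldha, Myh14, Myh7, Myom2, Myoz1, Nr1d1, Pfkm, Pkm, Rapsn, Ryr1 and Slc2a4 lie outside this rule and were chosen after their values were seen, as were Gapdh, Pln and Atp5g1. On simulated data 145 of 200 planted changes among 13754 genes were called, with 13 false calls. Some genes that the rule names are not reported here.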

Additional observations from a re-analysis of the deposited data

Results flagged for a closer look

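In 9 of 206 groups of 4 mice, 1 mouse stood apart from the other 3 by Dixon's test at the 95% level, which chance does in about 1 in 20 groups. Of these groups 6 were of R6/2 and 3 of wild type mice, and some mice stood apart in more than 1 group. R6/2 control 2 was the highest of its genotype for Acta1 (14170 CPM, the others 7334 to 7770), for Vldlr (44.5 CPM, the others 30.3 to 30.5) and for Chrng (0.684 CPM, the others 0.0815 to 0.0985). R6/2 control 1 stood apart for Serpinb1a, with 49.2 CPM. R6/2 vehicle 2 stood apart for Ucp1, with 2.71 CPM, and for Erbb2, with 9.99 CPM. Wild type vehicle 1 was highest for Bhlhe41 (90.5 CPM) and Fbxo32 (757.9 CPM), and wild type control 1 lowest for Des (4038 CPM). No cause was tested for any of them.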

How the results depend on the processing

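Scaling by library size alone gave 8876 calls in untreated mice, 6010 in the controls, 7652 in the vehicle mice and 8182 in treated mice. Of the 103 genes named, it turned the sign of 7 that were called with TMM or with library size alone: Htt (0.405), Myom2 (0.254), Hsf1 (0.24), Clcn1 (0.14), Gpi1 (0.067), Ccng1 (0.03) and Pkm (0.011). Named genes called under neither scaling could turn too, such as Fbxo32 (-0.578 with TMM, 0.031 with library size alone). Library size scaling also called Chrnd (0.666), Des (0.667), Dnajb1 (0.674), Hspb1 (0.965) and Trim63 (1.151) higher and no longer called Ache (-0.009) or Myh2 (-0.547). List medians turned to 0.51 for chaperones of the endoplasmic reticulum, 0.5 for tubulins and actin, 0.47 for the proteasome, 0.4 for fatty acid oxidation, 0.3 for the clock, 0.26 for polyamines, 0.15 for excitability, 0.07 for tendon markers and 0.04 for the respiratory chain, and also to 0.56 for BMP signalling, 0.52 for endothelial markers, 0.51 for the cytosolic and mitochondrial chaperones, 0.49 for collagens, 0.4 for embryonic isoforms and 0.37 for ATF4. In the other settings no sign turned for a named gene called in the fit reported above or in that setting. Signs of uncalled genes did turn, such as Chrnd (-0.138 to 0.214 with 1 mouse left out). Apart from library size scaling and the fits with 1 mouse left out, 1024 of 1030 values kept their side of the threshold. Fitting only the libraries compared gave 492 calls in the controls and 1 between the experiments, where DESeq2 gave 20 (24 libraries) and 51 (8 libraries). With 1 mouse left out, a lone mouse being assumed to vary like the other groups, calls ranged from 3004 to 4094 in untreated mice, 258 to 1885 in the controls, 1365 to 1744 in the vehicle mice, 0 to 1 between the experiments and 2373 to 3655 in treated mice. The cause of these changes was not tested. The replicate block gave 4062 calls in untreated mice, 1596 in the controls, 2520 in the vehicle mice, 0 between the experiments and 3166 in treated mice. Same-numbered mice shared only a number, with correlations of their deviations of -0.027 and 0.049. At this depth and number of mice, 41.8% of simulated 1.5-fold changes and 80.6% of 2-fold changes were called in the untreated comparison, so smaller changes can be missed. The simulation changed 200 genes and gave untreated R6/2 mice the wild type level of all others. In the data 4194 genes were called and the share of the highest genes differed between the genotypes, so these percentages need not hold for them.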

Other observations

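The counts of this section are to be read against the 15.1% of all genes called higher and the 15.4% called lower. Genes of the circadian clock and its outputs were mostly lower in untreated R6/2 muscle, with 10 of 20 falling and 3 rising (median -0.31, +0.3 with library size alone). Dbp, a clock output factor, had 139.7, 82.1, 111 and 102 CPM in wild type and 15.2, 55.1, 24.2 and 26.9 CPM in R6/2 mice (-1.86 ± 0.288, adjusted p = 0.00014). The repressors Bhlhe41 (-1.80 ± 0.223) and Nr1d1 (-1.38 ± 0.238) fell as well, and the ranges of all 3 genes were apart. None of the 3 rises was left without R6/2 control 1, and 1 was left without wild type control 1 or wild type vehicle 2. The hour at which tissue was taken was not analysed here.

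In polyamine metabolism 6 of 13 genes fell and 2 rose, and 1 rose without any mouse other than wild type control 2. Amd1, the enzyme that makes decarboxylated S-adenosylmethionine, had 43.1, 38.5, 238 and 196 CPM in wild type and 37.0, 34.5, 48.5 and 38.5 CPM in R6/2 mice (-1.25 ± 0.266, adjusted p = 0.0019). As with Smox, the wild type vehicle mice stood above all others, and near-identical copies of Amd1 could share its reads. Of 32 genes of ATF4 and the integrated stress response 7 fell and 2 rose, with 3 falling without R6/2 control 1 or wild type vehicle 1 and 4 without R6/2 vehicle 1, wild type control 1 or wild type control 2. Vldlr, a lipoprotein receptor, fell from 94.5 to 287 CPM to 30.3 to 44.5 CPM (-2.24 ± 0.169).

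In signalling, 9 of 23 genes of the insulin and IGF pathway rose and 3 fell, with 5 rising without R6/2 control 1 and 1 falling without wild type control 2. Akt2, the main AKT kinase of insulin action in muscle, rose from 139 to 153 CPM to 205 to 288 CPM (0.74 ± 0.0919), although a near-identical copy could share its reads. Of 29 genes of BMP, activin and myostatin signalling 4 rose and 4 fell, shares near those of all genes (15.1% higher and 15.4% lower). Without wild type control 2, 1 rose, without R6/2 control 1, R6/2 vehicle 1 or wild type vehicle 1, 2 rose, and without R6/2 control 2, 7 fell. Nog, a secreted BMP antagonist, had 10.1, 7.99, 13.0 and 10.3 CPM in wild type and 2.71, 3.19, 3.36 and 3.25 CPM in R6/2 mice (-1.72 ± 0.174).

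Of 41 collagens and other matrix genes 4 rose and 3 fell, and 10 fell without R6/2 control 2, 5 without R6/2 vehicle 2 and 1 without wild type control 2 or wild type vehicle 2. Lox, the enzyme that crosslinks collagen, rose by 1.09 ± 0.172. Of 19 interferon and antigen presentation genes 5 rose, but 0 did without R6/2 control 2, 1 without R6/2 vehicle 2, wild type control 2 or wild type vehicle 2, and 3 without wild type control 1 or wild type vehicle 1. Proteasome subunits fell in 9 of 33 cases and rose in 0, and all 9 changed sign with library size alone. Tubulins and the actin cytoskeleton fell in 6 of 26 cases, of which Tuba8 (-1.13 ± 0.0962) kept its sign. Autophagy and lysosome genes rose in 6 of 31 cases and fell in 3, against 15.1% and 15.4% of all genes, so neither count stands far from the background, and Becn1, which starts autophagosomes, rose from 87.4 to 91.4 CPM to 116 to 142 CPM (0.50 ± 0.0775). Of 18 chaperones of the endoplasmic reticulum 5 fell and 1 rose, with 3 falling without wild type vehicle 1. Among 15 genes of huntingtin and its partners 4 rose and 1 fell, with 2 rising without R6/2 vehicle 2.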
